A study of Mus musculus with 4 samples.

Results

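The 54 genes described here act in mitosis: they start it, build the spindle and the kinetochore, condense the chromosomes and divide the cell. They were taken by name from a list that holds no measured value, and all 54 had a row among the 29811 genes rebuilt from the deposited transcript tables. All 54 also passed the filter on low values, as 11826 genes did in all, and none was listed at 0 in any library. The list was drawn up with earlier results of the same data in view, so its common direction is described and not tested.

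The messenger RNA came from stem cells of primary squamous cell carcinomas of mouse skin epidermis. Lineage negative cells that carried integrin α6 and CD44 on their surface were sorted by a fluorescent reporter of transforming growth factor β (TGF-β) signalling. The reporter positive cells, in which TGF-β signalling was present, and the reporter negative cells, in which it was absent, each gave 1 library in each of 2 experiments, so that n = 2 per group. All 4 libraries share the strain C57BL/6 X FBV and a genotype of TetO-Hras with the LV-rtTA3-TGF-beta reporter: an Hras transgene under tetracycline control, the transactivator that switches it on, and the mCherry reporter. The oncogene is therefore common to both groups and is not compared. The sources used here do not give the promoter behind the transactivator, the age of the mice or the number of animals per library. Nothing in the labels says that the experiments used separate animals, so a p-value speaks only of the spread among these 4 libraries.

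A cell enters mitosis when Cdk1, bound first to cyclin A and then to cyclin B, becomes active. The kinetochore then ties each chromosome to spindle microtubules, the spindle checkpoint holds the cell until every chromosome is attached, and the anaphase-promoting complex, with Cdc20, marks cyclin B and securin for destruction. Most of these genes are transcribed together late in the cell cycle, from promoters bound by the MuvB complex with Mybl2 and Foxm1, while in resting cells MuvB joins the DREAM complex and keeps them silent. In epidermis and its tumours they mark dividing cells of the basal layer. A bulk library cannot tell a smaller share of dividing cells from less of these RNAs in each cell.

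All values below are FPKM (fragments mapped, scaled to the length of the transcript and to the depth), summed over the transcripts of a gene and given for experiments 1 and 2 in that order. Changes are differences of log2(FPKM + 1), reporter positive minus reporter negative, with their SE. The added 1 shrinks the change of genes with low levels. Adjusted p-values are from limma over all 11826 genes with a threshold of 0.05. The libraries held 3.55 and 3.29 gigabases of aligned sequence in reporter positive cells and 3.13 and 3.75 in reporter negative cells. Each transcript has a deposited interval, whose reach is taken here to either side of its midpoint. Over the most abundant transcripts of the 54 genes, the median reach was 7.55% and 7.92% of the FPKM in reporter positive cells. In reporter negative cells it was 7.15% and 6.27%. Such an interval is given within 1 library and does not cover the spread between libraries. The sort genes were present in every library: Itga6, the integrin α6 chain, had 181 and 205 FPKM in reporter positive cells and 331 and 410 in reporter negative cells, and Cd44 had 88.0 and 81.3 against 81.5 and 112. Itga6 missed the threshold (adjusted p = 0.0546, limma) and passed it with the experiments as blocks (adjusted p = 0.0174, limma).

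The mean level of every one of the 54 genes was lower in reporter positive cells as deposited. Among all 11826 tested genes the mean change was below 0 in 8159. Under median-of-ratios scaling 50 of the 54 were lower, while Aurka, Ccnb1, Cdk1 and Ttk turned to 0 or above. The summed level of the 54 was 1234 and 1034 FPKM in reporter positive cells and 1507 and 1647 FPKM in reporter negative cells. That was 81.9% of the reporter negative level in experiment 1 and 62.8% in experiment 2. The median gene stood at 15.0 and 14.7 FPKM in reporter positive cells and at 19.5 and 24.1 FPKM in reporter negative cells. Single changes ran from -1.06 for Ncapd2, a condensin subunit, to -0.05 for Aurka, the kinase that matures the spindle poles, with a median of -0.51. The deposited scaling put the median of all tested genes at -0.18, a difference of -0.33 between the medians. Median-of-ratios scaling moved that median to 0.03 and the median of the mitosis genes to -0.29, which left the difference at -0.33.

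Ccnb2, Kif4 and Mki67 passed the test over all genes, all lower in reporter positive cells. No mitosis gene passed in the other direction, and 51 did not pass. Among all genes 2.76% of genes passed as lower and 2.71% as higher. With the experiments as blocks 7 of the 54 passed as lower and 0 as higher, against 6.9% and 4.3% of all genes, and the 4 further genes were Ncapd2, Ncaph, Kif22 and Bub1b. At an unadjusted p under 0.05, 27 of the 54 were lower, against 18.2% of all genes. When no gene with a listed 0 was tested, 28 of the 54 passed as lower with blocks, against 19.8% of the 11366 genes in that fit. Leaving out any 1 of the 4 libraries left none of the 54 past the threshold.

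In 45 of the 54 genes both reporter positive libraries lay below both reporter negative libraries, as they did in 42.8% of all tested genes. In 49 the reporter positive library was the lower one in both experiments, against 54.3% of all genes. The other 5 genes, Ccnb1, Cdk1, Aurka, Bub3 and Cdca5, were higher in the reporter positive library of experiment 1 and lower in that of experiment 2. The gap between the sorted fractions was wider in experiment 2, with a median difference of -0.33 in experiment 1 and -0.67 in experiment 2. The medians over all tested genes were -0.13 and -0.24.

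**Figure D1:**
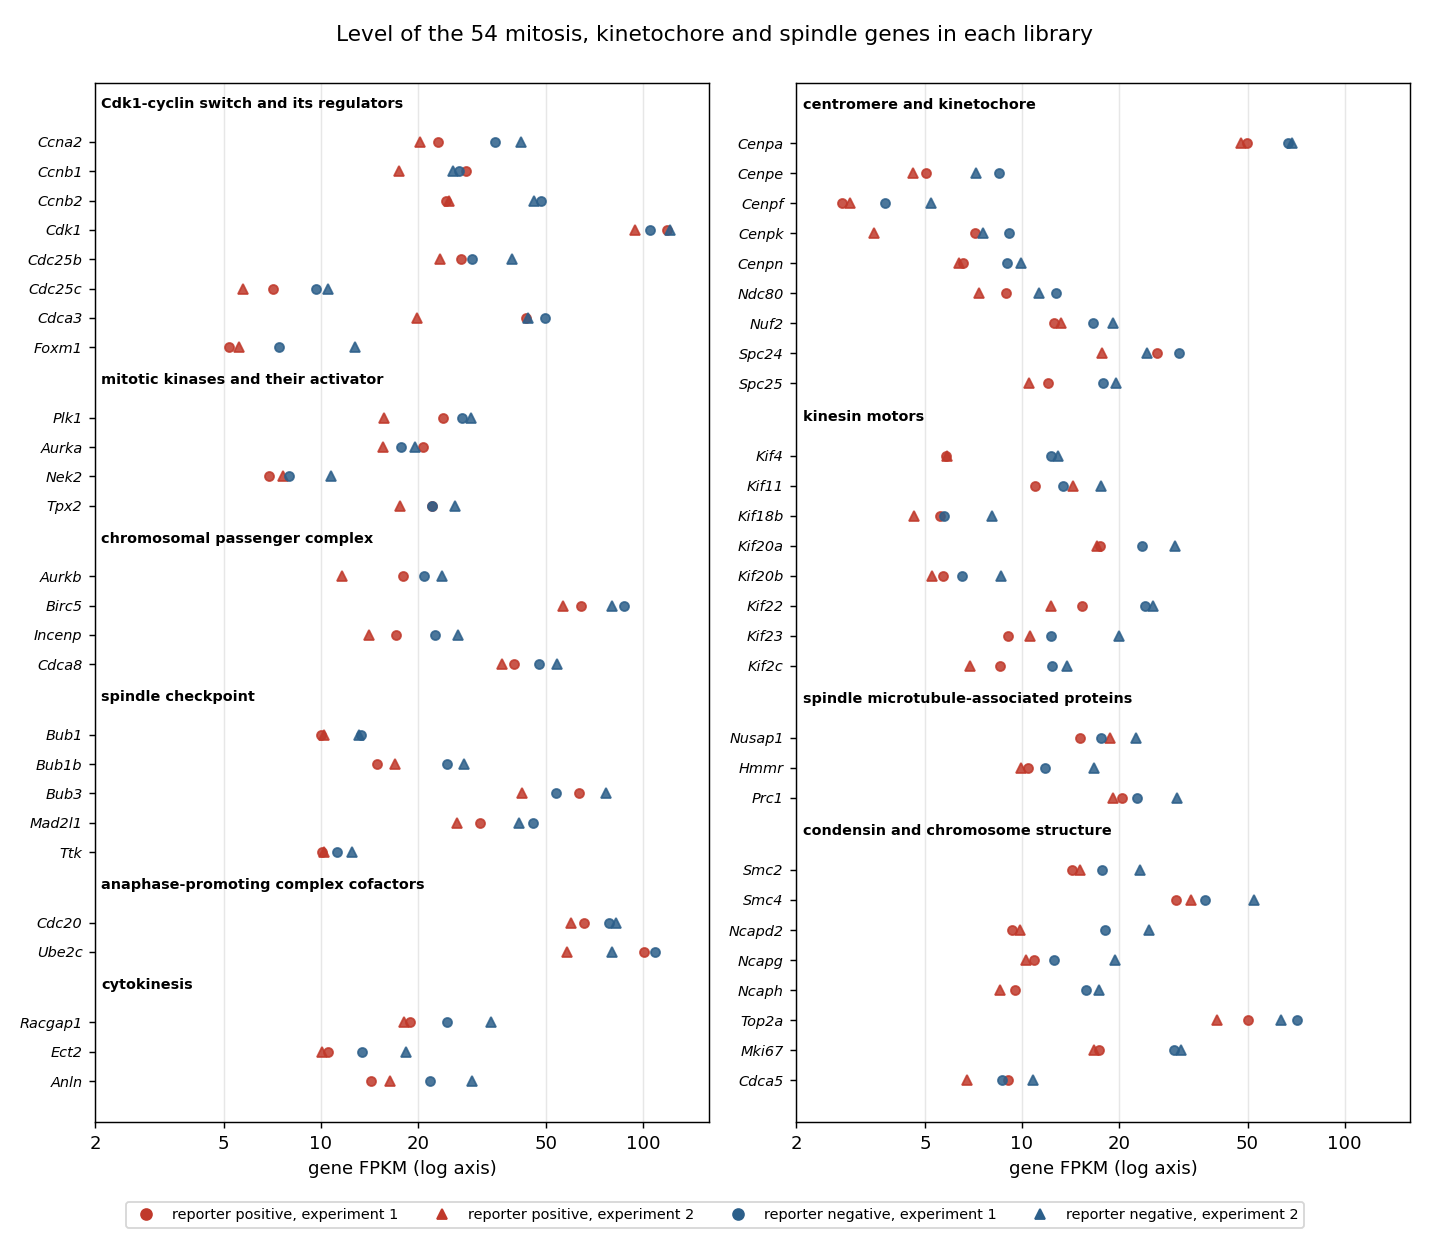
Level of each of the 54 genes in the 4 libraries, in FPKM on a log axis, grouped by role; red marks are reporter positive and blue marks reporter negative libraries, circles experiment 1 and triangles experiment 2, with no error bars. In 45 genes both red marks lie left of both blue marks.

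Members of the Cdk1-cyclin group switch mitosis on, and 1 of 8, Ccnb2, passed the test, where 2.76% of all genes passed as lower. Ccnb2, cyclin B2, lies at chr9:70255496-70269361 on the minus strand of mm9. It had 24.4 and 25.01 FPKM in reporter positive cells and 48.3 and 45.8 FPKM in reporter negative cells. The groups lay far apart, with little spread inside either. Its mean was 24.7 ± 0.421 FPKM in reporter positive and 47.0 ± 1.78 FPKM in reporter negative cells (SD, n = 2 each), a change of -0.90 ± 0.13 (adjusted p = 0.0348, limma). The deposited FPKM of its most abundant transcript lay outside that transcript's own interval in 3 of the 4 libraries, reporter negative experiment 1 being the exception. In that library 24.4% of the Ccnb2 level lay on assembled transcripts. On annotated transcripts alone the reporter negative libraries had 36.5 and 45.8 FPKM, and the groups still did not overlap. There the change was -0.70 (adjusted p = 0.183, limma).

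Cyclin A2, encoded by Ccna2, had 23.1 and 20.4 FPKM in reporter positive cells and 34.6 and 41.8 FPKM in reporter negative cells. The groups did not overlap, and the change of -0.79 ± 0.17 just missed the threshold with and without blocks (adjusted p = 0.0507 and 0.0677, limma). Ccnb1, cyclin B1, had 28.2 and 17.5 FPKM in reporter positive cells and 26.8 and 25.7 FPKM in reporter negative cells. Its reporter positive libraries lay on both sides of the reporter negative ones, and the change of -0.23 ± 0.25 did not pass (adjusted p = 0.607, limma). Of its level in reporter positive experiment 1, 73.6% lay on assembled transcripts. On annotated transcripts alone Ccnb1 had 7.42 and 10.7 FPKM in reporter positive cells and 20.1 and 17.3 FPKM in reporter negative cells. There the groups did not overlap, and the change was -0.99, which did not pass either.

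Cdk1, the kinase these cyclins activate, had the highest summed FPKM of the 54 genes in 3 of the 4 libraries. In reporter negative experiment 1 Ube2c was higher. With each transcript weighted by its length, the mean over the 4 libraries was 39.6 for Cdk1, below 71.5 for Cdc20. As summed FPKM Cdk1 had 118 and 94.2 FPKM in reporter positive cells and 105 and 121 FPKM in reporter negative cells. The groups overlapped and the change was -0.09 ± 0.17 (adjusted p = 0.776, limma). Its annotated transcript of 1253 bases alone carried 76.8 and 59.3 FPKM in reporter positive cells against 105 and 79.5 FPKM in reporter negative cells, and on that transcript the groups did not overlap. The remainder lay on another annotated transcript, to which reporter negative experiment 1 gave nothing.

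Foxm1, the transcription factor that drives late cell cycle genes, had 5.21 and 5.56 FPKM in reporter positive cells and 7.43 and 12.8 FPKM in reporter negative cells. The reporter negative libraries differed from each other by more than the groups did in experiment 1, and the change of -0.75 ± 0.28 did not pass (adjusted p = 0.183, limma). The phosphatases that remove the inhibitory phosphates from Cdk1 were Cdc25b, with a change of -0.42 ± 0.19, and Cdc25c, with -0.58 ± 0.19, and neither passed (adjusted p = 0.253 and 0.142, limma). Cdca3, known from Xenopus to help destroy the Cdk1 inhibitor Wee1, had 43.3 and 19.9 FPKM in reporter positive cells and 49.5 and 44.0 FPKM in reporter negative cells. Only its reporter positive library of experiment 2 stood apart from the other three.

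The mitotic kinases and Tpx2, which activates Aurora A on the spindle, held none of the genes that passed. Plk1, polo-like kinase, had 23.9 and 15.7 FPKM in reporter positive cells and 27.3 and 29.1 FPKM in reporter negative cells. Its groups did not overlap, but the reporter positive libraries were far apart and the change of -0.52 ± 0.23 did not pass (adjusted p = 0.236, limma). Aurka had 20.8 and 15.6 FPKM in reporter positive cells and 17.8 and 19.6 FPKM in reporter negative cells, which put the reporter negative libraries between the reporter positive ones. The change was -0.05 ± 0.19 (adjusted p = 0.907, limma), the smallest of the 54. Tpx2 came to 22.1 and 17.6 FPKM in reporter positive cells and to 22.2 and 26.1 FPKM in reporter negative cells, and Nek2, a centrosomal kinase, to 6.93 and 7.63 against 7.95 and 10.8 FPKM.

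All 4 members of the chromosomal passenger complex had groups that did not overlap, reporter positive being lower, as had 42.8% of all tested genes. No gene of this complex, which corrects faulty attachments at the centromere, passed. Aurkb, its kinase Aurora B, had 18.01 and 11.7 FPKM in reporter positive cells and 21.0 and 23.8 FPKM in reporter negative cells, a change of -0.59 ± 0.24 (adjusted p = 0.210, limma). Birc5, survivin, was the most abundant member as summed FPKM. It had 64.2 and 56.2 FPKM in reporter positive cells and 87.1 and 79.9 FPKM in reporter negative cells, a change of -0.47 ± 0.14 (adjusted p = 0.131, limma). With transcripts weighted by length, the mean level over the 4 libraries was 20.3 for Birc5 and 21.5 for Cdca8. The scaffold gene Incenp had the largest change of the complex, -0.62 ± 0.18, and Cdca8, borealin, the smallest, -0.40 ± 0.15. The 2 Aurora kinases differed in level by experiment: Aurkb was lower in the reporter positive library in both, and Aurka in experiment 2 alone.

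Of the 5 spindle checkpoint genes, none passed without blocks and Bub1b passed with them, where 6.9% of all genes passed as lower. Bub1b encodes BubR1, a part of the complex that holds Cdc20 inactive, and lies at chr2:118423947-118467327 on the plus strand of mm9. It had 14.9 and 17.0 FPKM in reporter positive cells and 24.6 and 27.9 FPKM in reporter negative cells. The difference was nearly the same in both experiments, -0.69 and -0.68, and the change of -0.68 ± 0.16 gave an adjusted p of 0.0818 without and 0.0465 with blocks (limma). Mad2l1, which carries the checkpoint signal, had 31.1 and 26.4 FPKM in reporter positive cells and 45.6 and 41.2 FPKM in reporter negative cells, a change of -0.58 ± 0.15 (adjusted p = 0.103, limma). Ttk, the kinase at the head of the checkpoint, had the smallest change of the 5, -0.20 ± 0.16, with 10.1 and 10.3 FPKM against 11.3 and 12.5 FPKM in reporter negative cells. Bub1, a checkpoint kinase at the kinetochore, had 9.99 and 10.3 FPKM in reporter positive and 13.3 and 13.1 FPKM in reporter negative cells. Bub3, its partner and the most abundant of the 5, had groups that overlapped, with 63.3 and 42.1 FPKM in reporter positive cells and 53.5 and 76.8 FPKM in reporter negative cells.

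The targets of the checkpoint, the cofactors of the anaphase-promoting complex, were among the most abundant of the 54 genes. Cdc20, the activator that the checkpoint holds back, had 65.4 and 59.6 FPKM in reporter positive cells and 78.3 and 82.6 FPKM in reporter negative cells. The groups did not overlap, and the change of -0.36 ± 0.13 did not pass (adjusted p = 0.180, limma). Ube2c, the enzyme that passes ubiquitin to the complex, had 100.2 and 58.0 FPKM in reporter positive cells and 109 and 79.8 FPKM in reporter negative cells. Both of its libraries of experiment 1 were above both of experiment 2, so that the groups overlapped although the reporter positive library was lower in each experiment.

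None of the 9 centromere and kinetochore genes passed, with or without blocks. In 8 of them both reporter positive libraries lay below both reporter negative ones, as in 42.8% of all tested genes. Cenpa, the histone that marks the centromere, was the most abundant, with 49.8 and 47.7 FPKM in reporter positive cells and 66.8 and 68.7 FPKM in reporter negative cells. The libraries of a group were close together, and the change was -0.47 ± 0.13 (adjusted p = 0.106, limma). The Ndc80 complex, which grips the microtubule, is made of Ndc80, Nuf2, Spc24 and Spc25, and their changes were -0.51 ± 0.18, -0.44 ± 0.16, -0.33 ± 0.24 and -0.68 ± 0.16. Spc25 had the largest change of the group, with 12.1 and 10.5 FPKM in reporter positive cells and 17.8 and 19.6 FPKM in reporter negative cells (adjusted p = 0.0861, limma). Spc24 had the smallest, and its reporter positive library of experiment 1, at 26.3 FPKM, exceeded the reporter negative library of experiment 2, at 24.4 FPKM. With each transcript weighted by its length instead of summed as it stands, Spc24 came to -0.51 with groups that did not overlap, and the largest and smallest changes of the 9 were then -0.78 for Cenpk and -0.37 for Cenpe. As summed FPKM the change was -0.60 ± 0.19 for Cenpe, a kinetochore motor, and -0.50 ± 0.22 for Cenpf, a large kinetochore protein with the lowest level of the 54 genes. For Cenpk and Cenpn, of the inner kinetochore, it was -0.62 ± 0.33 and -0.48 ± 0.17.

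Among the 8 kinesin motors Kif4 passed, and Kif22 passed with blocks. Of all genes 2.76% passed as lower without and 6.9% with blocks. Kif4, a chromosome-bound kinesin that also works at the midzone of the anaphase spindle, lies at chrX:97821076-97922553 on the plus strand of mm9. It had 5.80 and 5.84 FPKM in reporter positive cells and 12.3 and 12.9 FPKM in reporter negative cells. Neither group showed much spread, and the change was -0.997 ± 0.164 (adjusted p = 0.0430, limma). On annotated transcripts alone Kif4 had 5.80 and 5.84 FPKM in reporter positive cells and 5.58 and 8.04 FPKM in reporter negative cells, and there the groups overlapped. The remainder in the reporter negative libraries lay on transcripts assembled from the reads, in experiment 1 chiefly one of 1389 bases, against 4983 bases for the annotated transcript.

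Kif22, which pushes chromosome arms away from the poles, lies at chr7:134171246-134185934 on the minus strand of mm9. It had 15.3 and 12.3 FPKM in reporter positive cells and 24.1 and 25.6 FPKM in reporter negative cells. The groups were well apart, and the change of -0.81 ± 0.17 gave an adjusted p of 0.0682 without and 0.0493 with blocks (limma). Kif20a, a motor of the central spindle, was the most abundant kinesin, with 17.5 and 17.0 FPKM in reporter positive cells and 23.5 and 29.9 FPKM in reporter negative cells. Kif11, which separates the spindle poles, had the smallest change at -0.27 ± 0.22, and its libraries of experiment 2, at 14.4 FPKM in reporter positive and 17.5 FPKM in reporter negative cells, were both above those of experiment 1, at 10.9 and 13.4 FPKM. With transcripts weighted by length its change was -0.44, its groups did not overlap, and Kif18b had the smallest change of the kinesins at -0.36. The other kinesins were Kif2c, which takes microtubules apart, at -0.70 ± 0.19, Kif23, of the midbody, at -0.63 ± 0.27, Kif20b, which acts in cytokinesis, at -0.40 ± 0.21, and Kif18b, which shortens astral microtubules, at -0.36 ± 0.23. None of these passed.

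Of the proteins that bundle or coat spindle microtubules none passed. Prc1, which crosslinks the microtubules of the midzone, was the most abundant with 20.4 and 19.1 FPKM in reporter positive cells and 22.7 and 30.2 FPKM in reporter negative cells. Its groups did not overlap and the change was -0.39 ± 0.19. Hmmr, which links the spindle to its poles, had the largest change at -0.43 ± 0.22, and Nusap1, which bundles microtubules near the chromosomes, the smallest at -0.23 ± 0.20. Nusap1 had 15.1 and 18.7 FPKM in reporter positive cells and 17.6 and 22.6 FPKM in reporter negative cells, so its groups overlapped. In the reporter positive libraries 57.8% and 62.4% of this level lay on assembled transcripts. Weighted by length, Nusap1 had the largest change of the 3, -0.53 with groups that did not overlap, beside -0.39 for Prc1 and -0.37 for Hmmr.

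The condensin and chromosome structure genes held 3 of the 7 genes that passed with blocks, where 6.9% of all genes passed as lower. Mki67 encodes Ki-67, the coat of mitotic chromosomes used to mark dividing cells, and lies at chr7:142881471-142908062 on the minus strand of mm9. It had 17.3 and 16.7 FPKM in reporter positive cells and 29.5 and 31.1 FPKM in reporter negative cells. The groups lay well apart, and the change of -0.80 ± 0.14 passed (adjusted p = 0.0476, limma). Of its level, 76.5% in reporter negative experiment 1 and 38.8% in reporter positive experiment 2 lay on assembled transcripts, and on annotated transcripts alone the groups overlapped. An assembled fragment with no recorded strand overlaps Mki67 in the reporter negative library of experiment 2 and would bring that library to 46.3 FPKM, and Mki67 did not pass once such fragments were added.

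Ncapd2 and Ncaph are subunits of condensin I, the ring complex that compacts chromosomes with the ATPases Smc2 and Smc4. Ncapd2, at chr6:125118027-125141613 on the minus strand of mm9, had 9.33 and 9.88 FPKM in reporter positive cells and 18.04 and 24.7 FPKM in reporter negative cells. The change of -1.06 ± 0.20 was the largest of the 54 and missed the threshold without blocks but passed with them (adjusted p = 0.0561 without and 0.0311 with blocks, limma). In reporter negative experiment 1, 40.6% of the Ncapd2 level lay on assembled transcripts. On annotated transcripts alone it had 9.33 and 9.88 FPKM in reporter positive cells and 10.7 and 24.7 FPKM in reporter negative cells. There the change was -0.71 (adjusted p = 0.466, limma). Weighted by length, the change of Ncapd2 was -0.89 ± 0.28 (adjusted p = 0.133 without and 0.0470 with blocks, limma). Ncaph, at chr2:126929545-126959690 on the minus strand of mm9, had 9.49 and 8.52 FPKM in reporter positive cells and 15.8 and 17.3 FPKM in reporter negative cells. Its change was -0.81 ± 0.16 (adjusted p = 0.0617 without and 0.0489 with blocks, limma).

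The other condensin genes had smaller changes, -0.52 ± 0.24 for Ncapg, -0.46 ± 0.21 for Smc4 and -0.44 ± 0.19 for Smc2. Their groups did not overlap, and in 42.8% of all tested genes both reporter positive libraries likewise lay below both reporter negative ones. The 5 subunits were therefore all lower in reporter positive cells, 3 of them by amounts that did not pass in either fit. Top2a, the topoisomerase that untangles sister chromatids, was the most abundant gene of the group, with 50.04 and 40.1 FPKM in reporter positive cells and 71.4 and 63.3 FPKM in reporter negative cells. Its change of -0.57 ± 0.17 missed the threshold, with blocks by little (adjusted p = 0.122 without and 0.0502 with them, limma). On annotated transcripts alone Top2a had 34.3 and 40.1 FPKM in reporter positive cells and 26.9 and 63.3 FPKM in reporter negative cells. There the groups overlapped and the change was -0.15. Weighted by length, the change of Top2a was -0.45 (adjusted p = 0.179 without and 0.0861 with blocks, limma). Cdca5, sororin, which holds sister chromatids together, had a change of -0.27 ± 0.22, with 9.07 and 6.76 FPKM in reporter positive cells and 8.64 and 10.9 FPKM in reporter negative cells, and its groups overlapped.

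The 3 cytokinesis genes, which act through the small GTPase RhoA, all had groups that did not overlap, and none passed. Reporter positive libraries were lower without overlap in 42.8% of all tested genes too. Racgap1, of the centralspindlin complex, had 19.0 and 18.2 FPKM in reporter positive cells and 24.5 and 33.7 FPKM in reporter negative cells, a change of -0.61 ± 0.20. Ect2, the exchange factor it recruits, had 10.6 and 10.1 FPKM in reporter positive cells and 13.4 and 18.3 FPKM in reporter negative cells, a change of -0.56 ± 0.20. Anln, anillin, the scaffold of the contractile ring, had 14.3 and 16.4 FPKM in reporter positive cells and 21.7 and 29.4 FPKM in reporter negative cells, a change of -0.69 ± 0.20. In all 3 the reporter negative library of experiment 2 was the highest.

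**Figure D2:**
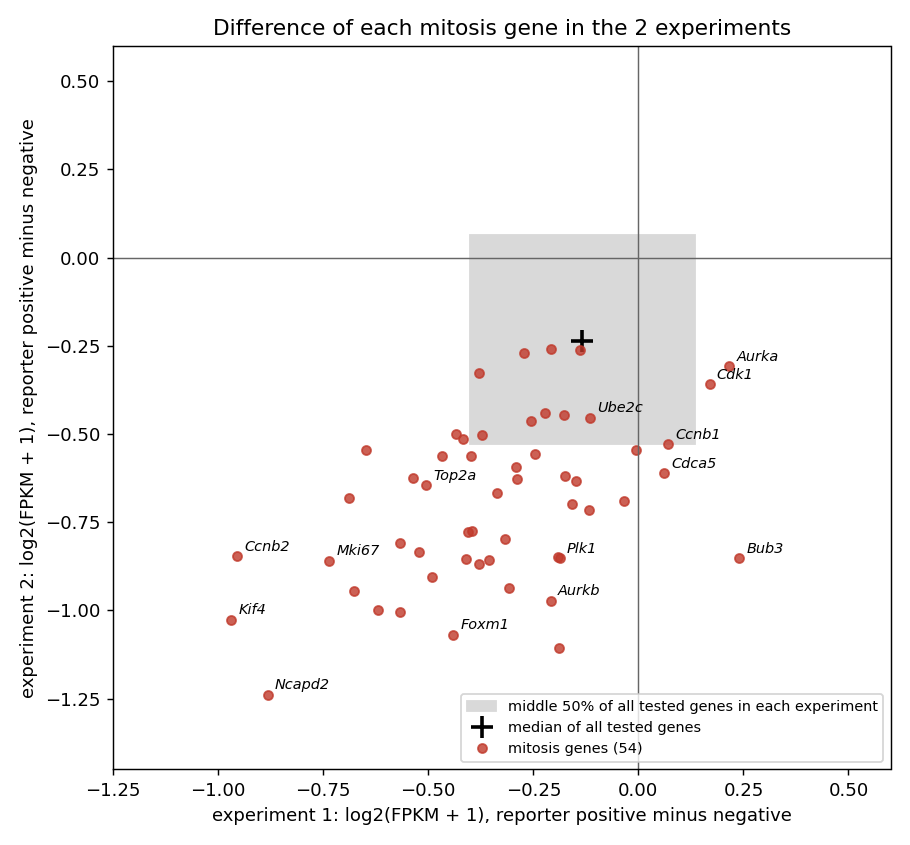
Difference between reporter positive and reporter negative cells on the log2(FPKM + 1) scale, experiment 1 on the x axis and experiment 2 on the y axis, 1 point per gene; the grey box spans the middle 50% of all tested genes in each experiment and the cross their medians. Of the 54 points, 49 lie left of and below 0, and 5 lie right of 0 and below it.

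Summed FPKM counts a short transcript as much as a long one, and the assembled and short forms differed between libraries. In 11 and 7 of the 54 genes over 50% of the level lay on assembled transcripts in the reporter positive libraries, and in 8 and 7 in the reporter negative ones. The levels were therefore also taken as fragments per gene, with each transcript weighted by its length. On that scale the median change was -0.49, against -0.18 for all genes, and both reporter positive libraries lay below both reporter negative libraries in 51 of the 54 genes, against 43.7% of all genes. Aurka, Ube2c and Cdca5 were the exceptions. In 52 genes, all but Aurka and Cdca5, the reporter positive library was lower in both experiments, against 55.9% of all genes.

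Weighted by length, the change was -0.28 ± 0.17 for Cdk1 and -0.39 ± 0.16 for Ccnb1, and in both the groups no longer overlapped, though neither passed (adjusted p = 0.343 and 0.200, limma). The change of Kif4 came to -0.51 ± 0.20 (adjusted p = 0.198, limma), and that of Mki67 to -0.76 ± 0.14 (adjusted p = 0.0507, limma). Ccnb2 was the 1 gene of the 54 that passed, at -0.81 ± 0.12 (adjusted p = 0.0333, limma), where 2.87% of all genes passed as lower. With blocks 10 passed, against 10.2% of all genes: Ccnb2, Ccna2, Cdca3, Bub1b, Mad2l1, Cenpk, Kif22, Ncapd2, Ncaph and Mki67.

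**Figure D3:**
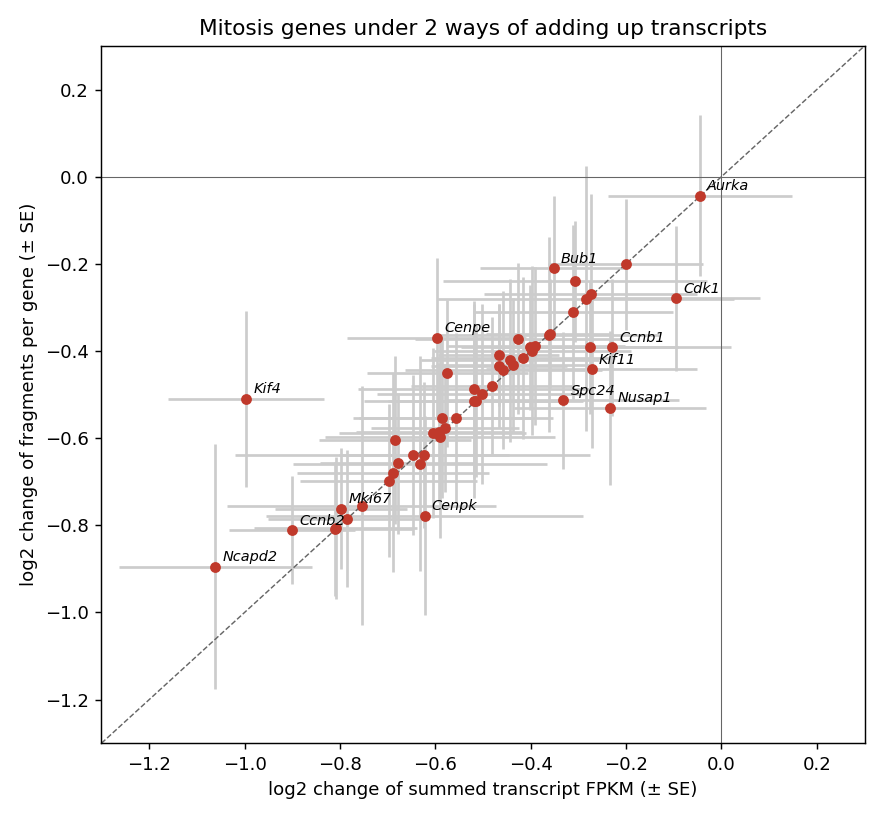
Change of each of the 54 genes (reporter positive minus reporter negative, log2 scale, ± SE) as summed FPKM on the x axis and as fragments per gene on the y axis; the dashed line marks equal values. Kif4 lies farthest above the line, at -0.997 and -0.51, and Aurka stays nearest to 0 on both axes.

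Promoters of the genes that passed and of those with the smallest changes are shown to compare the motifs of late cell cycle genes in them. Each stretch runs from 150 bases before to 30 bases after the annotated start on the gene's own strand and is taken from RefSeq (GRCm38.p6). Capitals mark TTTGAA, the core of the cell cycle genes homology region (CHR) that MuvB complexes bind, and CCAAT or its reverse complement ATTGG, the box bound by the factor NF-Y. Ccnb2, Kif4 and Mki67 passed the test, and Cdk1 and Aurka had the smallest changes.
Ccnb2: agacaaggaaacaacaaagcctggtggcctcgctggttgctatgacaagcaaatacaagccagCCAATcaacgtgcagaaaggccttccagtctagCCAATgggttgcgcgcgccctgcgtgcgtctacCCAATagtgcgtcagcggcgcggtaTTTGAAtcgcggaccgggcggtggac
Kif4: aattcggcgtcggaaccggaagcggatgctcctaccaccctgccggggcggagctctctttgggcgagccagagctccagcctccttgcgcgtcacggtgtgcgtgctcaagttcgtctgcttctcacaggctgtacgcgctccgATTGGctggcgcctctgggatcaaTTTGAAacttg
Mki67: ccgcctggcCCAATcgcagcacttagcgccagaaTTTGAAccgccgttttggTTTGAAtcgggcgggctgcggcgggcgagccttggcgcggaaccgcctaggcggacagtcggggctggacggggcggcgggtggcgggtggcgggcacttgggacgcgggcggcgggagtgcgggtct
Cdk1: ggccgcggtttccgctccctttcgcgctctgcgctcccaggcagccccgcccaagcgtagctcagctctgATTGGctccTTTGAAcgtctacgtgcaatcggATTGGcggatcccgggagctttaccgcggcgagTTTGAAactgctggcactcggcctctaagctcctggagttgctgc
Aurka: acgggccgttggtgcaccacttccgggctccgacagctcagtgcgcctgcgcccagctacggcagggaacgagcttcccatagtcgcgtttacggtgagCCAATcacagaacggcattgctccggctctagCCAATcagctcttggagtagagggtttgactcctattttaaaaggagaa

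These stretches lie at chr9:70421525-70421704 on the minus strand for Ccnb2, chrX:100625915-100626094 on the plus strand for Kif4 and chr7:135716350-135716529 on the minus strand for Mki67. For Cdk1 the stretch lies at chr10:69352883-69353062 and for Aurka at chr2:172370541-172370720, both on the minus strand. Ccnb2 has 3 CCAAT boxes with TTTGAA just after the start, at position 5 counted from 1 at the start base. A further TTTGAA of Ccnb2 lies upstream of the stretch shown. Mki67 and Cdk1 each have TTTGAA at 2 places. In Aurka TTTGAA lies at position 33, also outside the stretch.

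The RefSeq table held 50 promoters of 45 of the 54 genes, as windows from 250 bases before to 50 after the start. Aurkb, Ccna2, Cdc25c, Foxm1, Incenp, Kif20a, Smc4, Spc24 and Tpx2 had no entry. Counted on both strands, TTTGAA was present in 74.0% of the promoters of the mitosis genes, against 17.9% of all 32851 promoters in the table, and CCAAT in 80.0% against 37.4%. Both motifs were present in 64.0% against 6.95%, and in 1 promoter of the mitosis genes their matches shared bases. The TTTGAA nearest to the start lay between positions -123 and 41, with a median of 4.5 over 34 genes. Such a match describes the letters of the window and shows no binding.

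The median changes of mitosis genes with and without a motif lay close together, and their difference was not tested. The 34 mitosis genes with it had a median change of -0.51 and the 11 without it one of -0.44. Among all other tested genes with a promoter entry the medians were -0.22 for 1163 genes with TTTGAA and -0.20 for 7005 without. For CCAAT the medians of the mitosis genes were -0.48 with the box in 35 genes and -0.49 without it in 10.

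**Figure D4:**
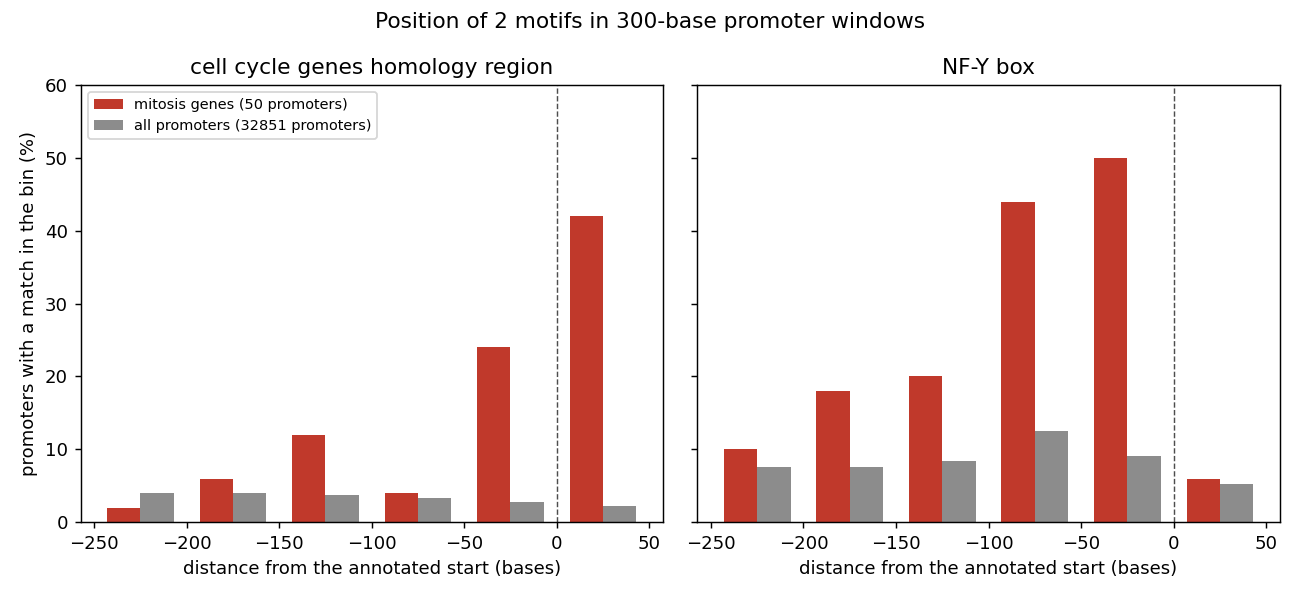
Share of promoters (%) with a match in each 50-base bin by distance from the annotated start, for the cell cycle genes homology region at left and the NF-Y box at right; red bars are the 50 promoters of the mitosis genes and grey bars all 32851 promoters. The red bars peak at 42.0% in the 50 bases after the start for the homology region and at 50% in the 50 bases before it for the NF-Y box.

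Beyond these 54 genes, a list of 122 other mitosis genes had 117 that could be tested. Of these, 3 passed as lower, or 2.56%, near the 2.76% of all tested genes, and 0 passed as higher. Their median change was -0.38, and in 63.3% of them both reporter positive libraries lay below both reporter negative ones, against 42.8% of all genes. With blocks 5 passed as lower and 1 as higher, both smaller shares than the 6.9% and 4.3% of all genes. Stmn1, stathmin, which takes microtubules apart, had the largest change among those that passed, with 20.7 and 23.2 FPKM in reporter positive cells and 65.2 and 62.3 FPKM in reporter negative cells (-1.50 ± 0.14, adjusted p = 0.0155, limma). Fbxo5, the Emi1 inhibitor of the anaphase-promoting complex, had 5.25 and 4.33 FPKM in reporter positive cells and 11.1 and 10.5 FPKM in reporter negative cells (-1.03 ± 0.18, adjusted p = 0.0492, limma). Pttg1, securin, which holds back the protease that cuts cohesin, had 25.7 and 24.0 FPKM in reporter positive cells and 43.7 and 42.6 FPKM in reporter negative cells (-0.77 ± 0.13, adjusted p = 0.0470, limma). In all 3 the libraries of each group lay close together and the groups far apart.

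By roles, the 17 subunits and regulators of the anaphase-promoting complex had a median change of -0.25 and the 14 genes of cohesin, separase and shugoshin one of -0.42. The 29 tested genes of the kinetochore and checkpoint outside the 54 had a median of -0.39, and the 27 other kinesins and spindle or centrosome genes one of -0.37. With blocks the further genes that passed as lower were Anapc13, a small subunit of the anaphase-promoting complex, and Cenph, of the inner kinetochore. Clasp1, which stabilises microtubule ends, was the 1 that passed as higher, with 13.6 and 14.2 FPKM in reporter positive cells and 5.51 and 7.82 FPKM in reporter negative cells (0.97 ± 0.21, adjusted p = 0.0427 with and 0.0722 without blocks, limma). Cenpo, Oip5, Haus8, Ccna1 and Lin9 did not pass the filter on low values.

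Genes of neighbouring cell cycle steps were measured beside the mitosis genes. Cdkn1a, the p21 inhibitor of cyclin-dependent kinases, had 127 and 129 FPKM in reporter positive cells and 52.6 and 56.0 FPKM in reporter negative cells (adjusted p = 0.0175, limma). Pcna, the sliding clamp of DNA replication, had 74.7 and 67.3 FPKM in reporter positive cells and 136 and 139 FPKM in reporter negative cells (adjusted p = 0.0333, limma). Both differed between the groups in both experiments, with Cdkn1a higher and Pcna lower in reporter positive cells.

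Of the markers of the layers of the epidermis, the basal sum was lower and the suprabasal sum higher in reporter positive cells. The 4 basal keratinocyte markers measured, Itga6, Itgb4, Col17a1 and Trp63, summed to 566 and 588 FPKM in reporter positive cells and 1243 and 1429 FPKM in reporter negative cells, with none at 0. The 7 suprabasal markers measured of 8 listed summed to 1222 and 1683 FPKM in reporter positive cells and 759 and 984 FPKM in reporter negative cells. The higher sum came from Tgm3, Tgm1 and Ivl. Krt10, the other abundant one, had 504 and 838 FPKM in reporter positive cells and 629 and 848 FPKM in reporter negative cells, and Dsc1 was at 0 in both reporter positive libraries, against 4.57 and 6.41 FPKM. Krt5, Krt14, Krt15 and Krt1 were not analysed here. Their part in the differences of the mitosis genes was not tested.

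Markers of other cell types were low in every library. The 7 fibroblast markers summed to 12.8 and 27.7 FPKM in reporter positive cells and 27.2 and 41.7 FPKM in reporter negative cells, and the 8 leukocyte markers to 11.2 and 26.4 against 28.4 and 46.6 FPKM. Most of the leukocyte sum was Cd74, with 8.39 and 17.5 FPKM in reporter positive cells and 25.7 and 42.0 FPKM in reporter negative cells. Without Cd74 the other 7 summed to 2.86 and 8.88 FPKM in reporter positive cells and 2.70 and 4.55 FPKM in reporter negative cells. Ptprc, the pan-leukocyte gene, lay between 0.15 and 0.36 FPKM, and Csf1r was at 0 in 3 libraries. The 5 endothelial markers summed to 2.64 and 3.10 FPKM in reporter positive cells and 4.19 and 11.5 FPKM in reporter negative cells, and the 4 melanocyte markers to at most 1.16 FPKM, with Pmel at 0 in all 4 libraries. Each sum over a whole list was lower in the reporter positive library of each experiment, while the leukocyte sum without Cd74 was higher there. The part of these cells in the differences of the mitosis genes was not tested.

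**Figure D5:**
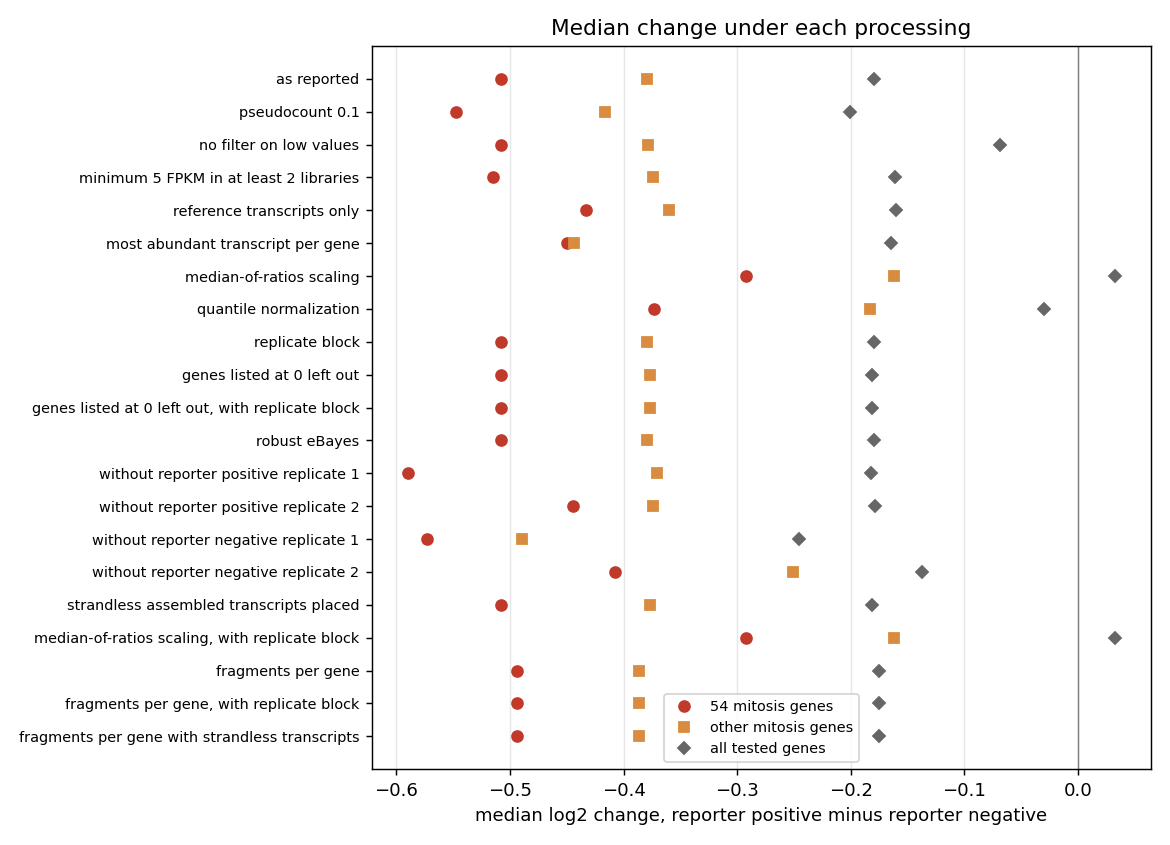
Median change (reporter positive minus reporter negative, log2 scale) of the 54 mitosis genes, the other mitosis genes and all tested genes under each processing, with no error bars. The red circles lie left of the grey diamonds in every setting, between -0.59 and -0.29.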

How the data were processed

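Transcripts were aligned and measured by the authors with TopHat and Cufflinks (build mm9), per the submitters' processing notes; the libraries were made with an Illumina kit for mRNA, according to the protocols in the labels. The sources used here give no versions, read length or annotation release. The deposited tables give an FPKM per transcript, a confidence interval, coverage and a score column (the relative abundance of the isoforms at a locus), per the file headers. The score was not used, and coverage over FPKM gave the aligned bases.

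Transcripts of at least 200 exonic bases were summed per gene. Shorter transcripts, left out, held 98.9% and 95.9% of the deposited FPKM in reporter positive libraries and 95.1% and 96.2% in reporter negative libraries. Annotated transcripts were named by Ensembl identifier (GENCODE M21, names only). In reporter negative experiment 1, 6981 of 96718 annotated transcripts had no name by identifier and were placed by overlap, as assembled ones were. Overlap means the gene that held at least 50% of their length on the same strand. Values for annotated transcripts alone used only those named by identifier, so they leave out annotated transcripts placed by overlap. FPKM is not a count, so no count model was used. Genes that reached 1 FPKM in 2 or more libraries entered limma 3.58.1 (R 4.3.3, intensity trend) on log2(FPKM + 1), two-sided, with Benjamini-Hochberg adjustment and a threshold of 0.05. The script was tested on simulated data with changes larger than those of the mitosis genes, so that test does not speak for changes of their size. Fragments per gene are FPKM times transcript length, summed and divided by the gene's longest annotated transcript; this alternative, the placing of strandless fragments and median-of-ratios scaling with blocks were chosen after the values were seen.

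The titles number the experiment, and libraries of the same number share it, so blocks of experiments were fitted as an alternative. Deviations of the reporter positive and negative libraries between experiments correlated at r = 0.189 over 11826 genes and 0.553 over the 54. The 54 genes and all lists were chosen with earlier results of these data known. All 54 may be named; values and tests are given in full for those that passed with or without blocks and for Ccnb1, Ccna2, Cdk1, Plk1, Aurkb, Top2a and Foxm1, with the most abundant and the most and least changed gene of each role.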

Additional observations from a re-analysis of the deposited data

How the results depend on the processing

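The median of the 54 mitosis genes stayed below that of all tested genes in each alternative, at -0.59 to -0.29, and no alternative gave a mitosis gene that passed as higher. Which genes passed depended on the processing, and the cause was not tested. The mitosis genes that passed as lower numbered 3 as reported, 2 with a pseudocount of 0.1 and with strandless fragments placed, and 4 with a minimum of 5 FPKM. There were 0 with no filter on low values, with annotated transcripts alone, with only the most abundant transcript, with median-of-ratios scaling (with or without the replicate block) and without each library in turn (0 to 0). There was 1 with quantile normalization and with fragments per gene, strandless fragments placed or not. There were 7 with the replicate block, where 6.9% of all genes passed as lower. There were also 7 with genes listed at 0 left out (777 of all 11366 genes) and with robust estimation (569 of all 11826 genes). Fragments per gene with the block gave 10, where 10.2% of all genes passed as lower. Zeros left out with the block gave 28, where 19.8% of all genes passed as lower. Ccnb2 passed in 12 settings, Kif4 in 8, Mki67 in 7 and Ncapd2 in 6.

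Of all 11826 tested genes, 326 were lower and 320 higher as reported. Lower genes numbered 259 with a pseudocount of 0.1, 347 of 11830 with strandless fragments placed and 338 of 8672 with a minimum of 5 FPKM. The counts of lower and higher genes were 24 and 45 with no filter, 29 and 41 with annotated transcripts alone, 139 and 187 with the most abundant transcript, 816 and 508 with the replicate block and 2251 and 920 with zeros left out and the block. With fragments per gene and the block they were 1195 and 643. The lower genes numbered 214 with median-of-ratios scaling, 186 with it and the block, 777 with zeros left out and 569 with robust estimation. Median-of-ratios scaling gave 475 higher genes and quantile normalization 261 lower and 424 higher. Without each library in turn 17 to 75 were lower and 16 to 148 higher; these fits assume that a library left alone in its group varies as the other pair does.

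Of the other mitosis genes 3 were lower and 0 higher as reported. The lower ones numbered 0 with no filter, annotated transcripts only or the most abundant transcript, and 1 with a pseudocount of 0.1, median-of-ratios scaling (also with the block), quantile normalization and fragments per gene (strandless fragments placed or not). They numbered 5 with the block or robust estimation and 7 with zeros left out. With fragments per gene and the block there were 13 of 117, where 10.2% of all genes passed as lower. With zeros left out and the block there were 34 of 115, where 19.8% of all genes passed as lower. There was 1 higher gene with either scaling, the block, zeros left out, robust estimation, and fragments per gene with the block, and there were 3 with zeros left out and the block. Their median was -0.16 with median-of-ratios scaling, also with the block, and -0.18 with quantile normalization.

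Directions turned in 7 mitosis genes, none of which passed as reported. Annotated transcripts alone gave 0.55 for Cdca3 and 0.078 for Cenpe. Median-of-ratios scaling, with or without the block, gave 0.18 for Aurka, 0.0012 for Ccnb1, 0.14 for Cdk1 and 0.019 for Ttk, and quantile normalization 0.10 for Aurka. Without each library in turn the changes ran from -0.24 to 0.15 for Aurka, from -0.56 to 0.099 for Ccnb1, from -0.26 to 0.067 for Cdk1 and from -0.67 to 0.10 for Ube2c. The high end was in each case without the reporter positive library of experiment 2, and Aurka and Cdk1 were also above 0, at 0.02 and 0.01, without the reporter negative library of experiment 2.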
